A study of Mus musculus with 4 samples.

Results

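The 10 genes described here, Smoc2, Olfm4, Ascl2, Cdca7, Tnfrsf19, Rgmb, Msi1, Prom1, Cd44 and Pdgfa, are markers linked to Lgr5-expressing stem cells at the base of intestinal crypts. They were chosen by name: every probe whose gene name on the array was one of the 10 was taken, which gave 22 of 41174 probes and 10 of 27180 gene names. Dual-color mouse expression arrays were used in 2 experiments, in which an array compared one RNA labelled with Cy3 and another labelled with Cy5.

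One experiment set colon RNA of Rspo3 KO animals (Myh11CreErt2/Rspo3 fl/fl) against that of littermate controls (Myh11CreErt2/Rspo3 +/+). Mice of both experiments were C57BL/6 males of 6 to 8 weeks. Both genotypes carried the same Cre and received tamoxifen in corn oil, and RNA was taken 2 weeks later. The labels name distal colon, and the methods name colon and at 1 place its epithelium. All 9 fibroblast markers tried were measured in these samples. Each of 2 arrays compared 1 KO mouse with 1 control, with the dyes exchanged on the second array, which gave n = 2 pairs. The Myh11 promoter drives Cre in smooth muscle and myofibroblasts, and epithelial cells therefore kept the Rspo3 gene in both genotypes. In the other experiment, epithelial cells of Axin2CreErt2/Rosa26-tdTomato mice were sorted 24 h after tamoxifen into tdTomato-positive (Axin2+) and tdTomato-negative (Axin2-) cells. The cells of 3 mice were pooled, and 2 arrays hybridised the same pools with the dyes swapped, so that n = 1 and no test across mice was possible. Axin2 is thus the gene that defined the sort. In tissue RNA, a smaller number of cells that express a gene and less RNA per cell cannot be told apart.

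Crypts are renewed by stem cells at their base, where Wnt signalling is strongest. R-spondins are secreted proteins that bind LGR receptors and keep the ubiquitin ligases RNF43 and ZNRF3 from removing Frizzled, the Wnt receptor, from the cell surface. Lgr5, Axin2, Ascl2, Tnfrsf19 and Cd44 are known Wnt target genes. Lgr5 marks the crypt base stem cells of the gut, whereas Axin2 is switched on more widely by Wnt signals.

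Ratios are given on the log2 scale as Rspo3 KO over control and as Axin2+ over Axin2-. Levels are log2 values of a single channel in arbitrary units, made comparable between the 2 arrays of an experiment, and are not compared between probes. A probe counted as measured when at least 1 channel was well above background on both arrays of the experiment, and each gene was represented by its brightest measured probe. The brightest probe was taken in each experiment by itself, and for Ascl2 it differed between them. By this rule 15 of the 22 probes were measured in the KO experiment and 18 in the Axin2 experiment. They represented 9 of the 10 genes in each, and Olfm4 was the gene without a measured probe in both.

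The sequences below are those of coding probes on which a reading of a gene turned, either because no channel gave signal or because probes of 1 gene differed. All are 60 bases long, are printed 5′ to 3′ in lower case, and have at least 1 reading frame without a stop codon. Positions are in mm9, as the array design gives them.
Olfm4 A_52_P607507 (chr14:80421398-80421457, plus strand): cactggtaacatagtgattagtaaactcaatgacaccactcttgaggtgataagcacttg
Olfm4 A_52_P828218 (chr14:80421539-80421598, plus strand): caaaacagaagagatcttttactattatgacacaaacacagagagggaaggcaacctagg
Cd44 A_51_P407053 (chr2:102674420-102674479, minus strand): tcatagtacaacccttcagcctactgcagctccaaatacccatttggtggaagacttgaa
Prom1 A_52_P402786 (chr5:44397410-44397469, minus strand): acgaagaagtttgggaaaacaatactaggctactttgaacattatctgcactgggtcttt
Pdgfa A_51_P370099 (chr5:139455132-139455191, minus strand): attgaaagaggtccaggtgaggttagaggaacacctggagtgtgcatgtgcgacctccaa
The Cd44 probe lies in the alternatively spliced stem region of CD44, the part in which variant isoforms differ from the standard one.

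On these arrays the dim probes of the targeted gene could not check the KO labels. The Rspo3 probe A_51_P428157 was not well above background in either channel of pair 1. In pair 2 its log2 level was 7.04 in the KO mouse and 6.87 in the control, a log2 ratio of 0.17. The second Rspo3 probe was below this limit in all 4 channels, and the sources used here do not give which of them, if any, covers the exons removed by Cre. Lgr5, the receptor gene that marks crypt base stem cells, gave log2 levels of 6.48 and 6.57 in the KO mice, neither of them well above background, against 7.75 and 9.19 in the controls. Its log2 ratios were -1.28 in pair 1 and -2.61 in pair 2, a mean of -1.94 ± 0.95 (SD, n = 2). By this mean Lgr5 was at least 3.85-fold lower in the KO mice, a bound because neither KO level was well above background. The limma adjusted p of Lgr5 was 0.105, and the difference was smaller in pair 1. The other probe, A_52_P30169, had the name Lgr5 only in the earlier design release. It stayed at background in all colon samples, with ratios of -0.16 and 0.07. The Axin2 log2 levels were 9.21 and 9.28 in the KO mice and 9.66 and 9.55 in the controls, with ratios of -0.45 and -0.26.

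Most of the measured markers were lower in Rspo3 KO colon, but none passed the test across all genes. Of the 9 genes, 6 were lower in both pairs, 2 were higher in both (Msi1 and Cd44), and Pdgfa went in opposite directions. Over all 15335 genes measured, 23.9% were lower in both pairs. The median log2 ratio of the 9 genes was -0.47 in pair 1, -0.59 in pair 2 and -0.55 for the mean of the pairs, against a median of -0.01 over all genes. By limma with Benjamini-Hochberg adjustment over all genes, 0 of 9 were called at an adjusted p under 0.05, the level that 0.222% of all genes reached. At an unadjusted p under 0.05 there were 5 of 9 (Smoc2, Cdca7, Tnfrsf19, Ascl2 and Prom1), against 4.62% of all genes. By the fold rule, a mean change past 1.5-fold whose sign both arrays shared, 4 of 9 were lower (Smoc2, Cdca7, Tnfrsf19 and Ascl2), against 2.48% of all genes, and 0 of 9 were higher, against 1.84%. Taken by itself, pair 1 placed 3 of 9 lower past 1.5-fold (Smoc2, Cdca7 and Tnfrsf19), against 7.51% of all genes in that pair. Pair 2 placed 5 of 9 lower (Smoc2, Cdca7, Ascl2, Rgmb and Prom1), against 5.62%. The 2 pairs varied widely: the log2 ratios of pair 1 and pair 2 correlated across genes with a Pearson r of 0.03 and a Spearman rho of -0.12, genes not being independent replicates.

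**Figure D1:**
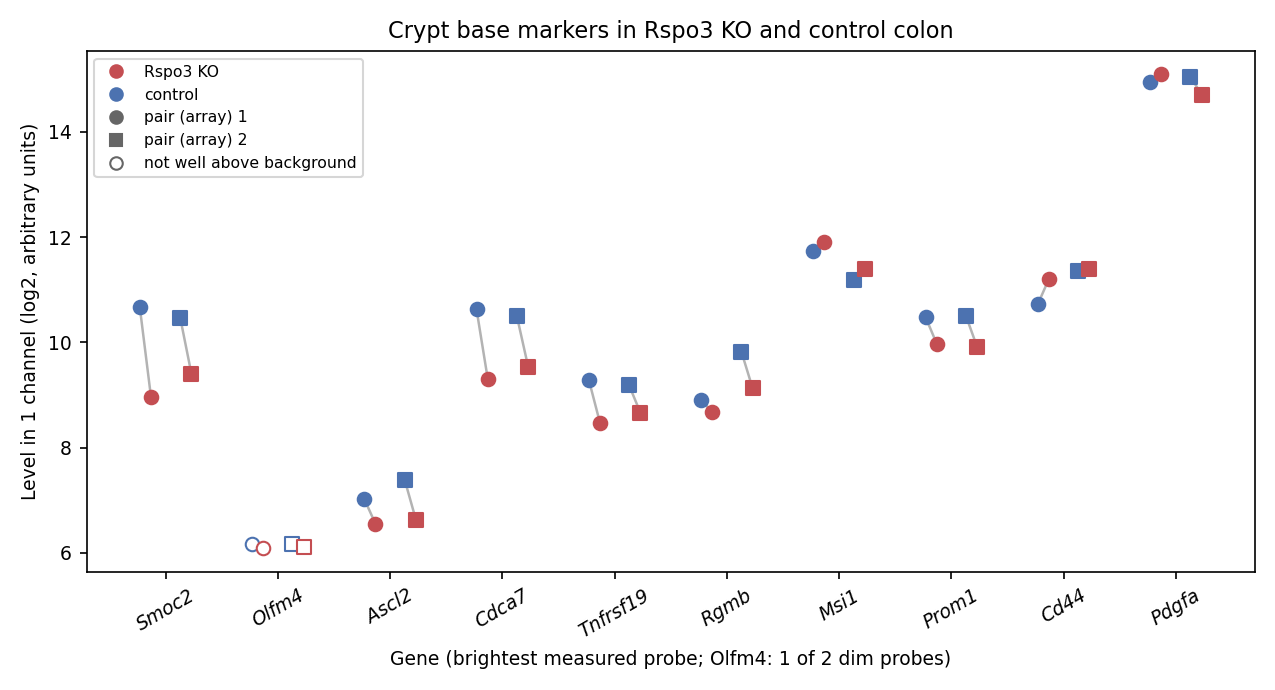
Log2 levels in 1 channel (arbitrary units) of the 10 crypt base markers in Rspo3 KO (red) and control (blue) colon, 1 mouse per point, with a grey line joining the mice hybridised to the same array; open symbols were not well above background. Smoc2, Cdca7, Tnfrsf19, Ascl2, Prom1 and Rgmb lay lower in the KO mouse of each pair, as did 23.9% of all genes measured. Msi1 and Cd44 lay slightly higher in the KO mouse of each pair, and Olfm4 stayed at background.

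Smoc2 encodes a secreted matricellular protein of the SPARC family. Its brighter probe gave log2 levels of 8.96 and 9.41 in the KO mice and of 10.67 and 10.47 in the controls. The KO mouse was the lower one in each pair. The log2 ratios were -1.71 and -1.06, a mean of -1.39 ± 0.46 (SD, n = 2), which was 2.62-fold lower. In limma its SE was 0.256, its p 0.000706 and its adjusted p 0.144. The second Smoc2 probe, which lies just downstream of the first, was dimmer and gave a smaller difference in the same direction, with log2 ratios of -0.64 and -0.70. Only 0.287% of the genes measured had a lower mean ratio than Smoc2.

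Cdca7, a nuclear zinc finger protein gene of dividing cells, was measured by its single probe at log2 levels of 9.31 and 9.54 in the KO mice and of 10.63 and 10.49 in the controls. The KO mouse was again the lower one in each pair. The log2 ratios were -1.32 and -0.95, a mean of -1.14 ± 0.26 (SD, n = 2) or 2.20-fold lower. In limma the p of Cdca7 was 0.00150 and the adjusted p 0.229. The earlier and later releases of the array design placed this probe on chromosomes 2 and 16, under the same gene name.

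Tnfrsf19, also known as Troy, encodes a receptor of the TNF receptor superfamily. Its measured probe gave log2 levels of 8.47 and 8.66 in the KO mice against 9.29 and 9.18 in the controls. The ratios of -0.82 and -0.52 gave a mean of -0.67 ± 0.21 (SD, n = 2), 1.59-fold lower (limma adjusted p = 0.819). Without pair 1 it did not reach 1.5-fold. The other Tnfrsf19 probe stayed at background on all 4 arrays.

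Ascl2, the basic helix-loop-helix transcription factor that sets crypt base stem cell identity, was close to background. The probe A_51_P469147 gave log2 levels of 6.55 and 6.63 in the KO mice and of 7.02 and 7.39 in the controls. Its ratios were -0.47 and -0.76, a mean of -0.61 ± 0.20 (SD, n = 2) or 1.53-fold lower (limma adjusted p = 0.940). Without pair 2 Ascl2 did not reach 1.5-fold, and in the scanner software's own log ratios its mean was -1.78 with a limma adjusted p of 0.0468. The second probe, A_52_P209073, carried the name Ascl2 only in the later design release and gave ratios of -0.09 and 0.13, so that the probes of this gene differed.

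Prom1 encodes prominin, or CD133, a pentaspan membrane protein. Its brighter probe gave log2 levels of 9.97 and 9.91 in the KO mice and of 10.48 and 10.50 in the controls. Both KO mice were lower, with ratios of -0.51 and -0.59 and a mean of -0.55 ± 0.06 (SD, n = 2), just short of 1.5-fold, which is 0.58 in log2 (limma adjusted p = 0.9997). The coding probe A_52_P402786, whose sequence is given above, did not repeat this in pair 2: its ratios were -0.86 and 0.06.

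Rgmb, a co-receptor for bone morphogenetic proteins, had log2 levels of 8.68 and 9.13 in the KO mice and of 8.90 and 9.82 in the controls. The groups overlapped, although the KO mouse was the lower one in each pair, with ratios of -0.21 and -0.70 (limma adjusted p = 0.9997). A second, dimmer Rgmb probe gave ratios of -0.63 and -0.17, and the remaining Rgmb probes were not measured in this experiment.

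Msi1, Cd44 and Pdgfa were not lower in both pairs. Msi1, which encodes an RNA-binding protein, had log2 levels of 11.91 and 11.39 in the KO mice and of 11.73 and 11.18 in the controls, with overlapping groups and ratios of 0.17 and 0.20. Cd44, the hyaluronan receptor, is a Wnt target gene that is also found on leukocytes and stromal cells. Its log2 levels were 11.21 and 11.40 in the KO mice and 10.72 and 11.36 in the controls, and the ratios were 0.48 and 0.04. A second Cd44 probe spotted 10 times on each array gave 0.48 and 0.06, with an SD between spots of 0.080 and 0.058. Pdgfa, which encodes a ligand of the receptor PDGFRA on mesenchymal cells, was bright in all mice, with levels of 15.09 and 14.70 in the KO mice and 14.94 and 15.04 in the controls. Its ratios were 0.15 and -0.34 and had opposite signs. The limma adjusted p was 0.9997 for each of these genes.

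Olfm4 encodes a secreted olfactomedin glycoprotein and is known as a stem cell marker of the mouse small intestine. Both coding probes printed above were below the limit for well above background in all 8 channels of the 4 arrays. The log2 levels of A_52_P607507 were between 6.10 and 6.17 in the colon samples and between 5.95 and 5.96 in the sorted cells. No fold is given, since all groups were at background.

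**Figure D2:**
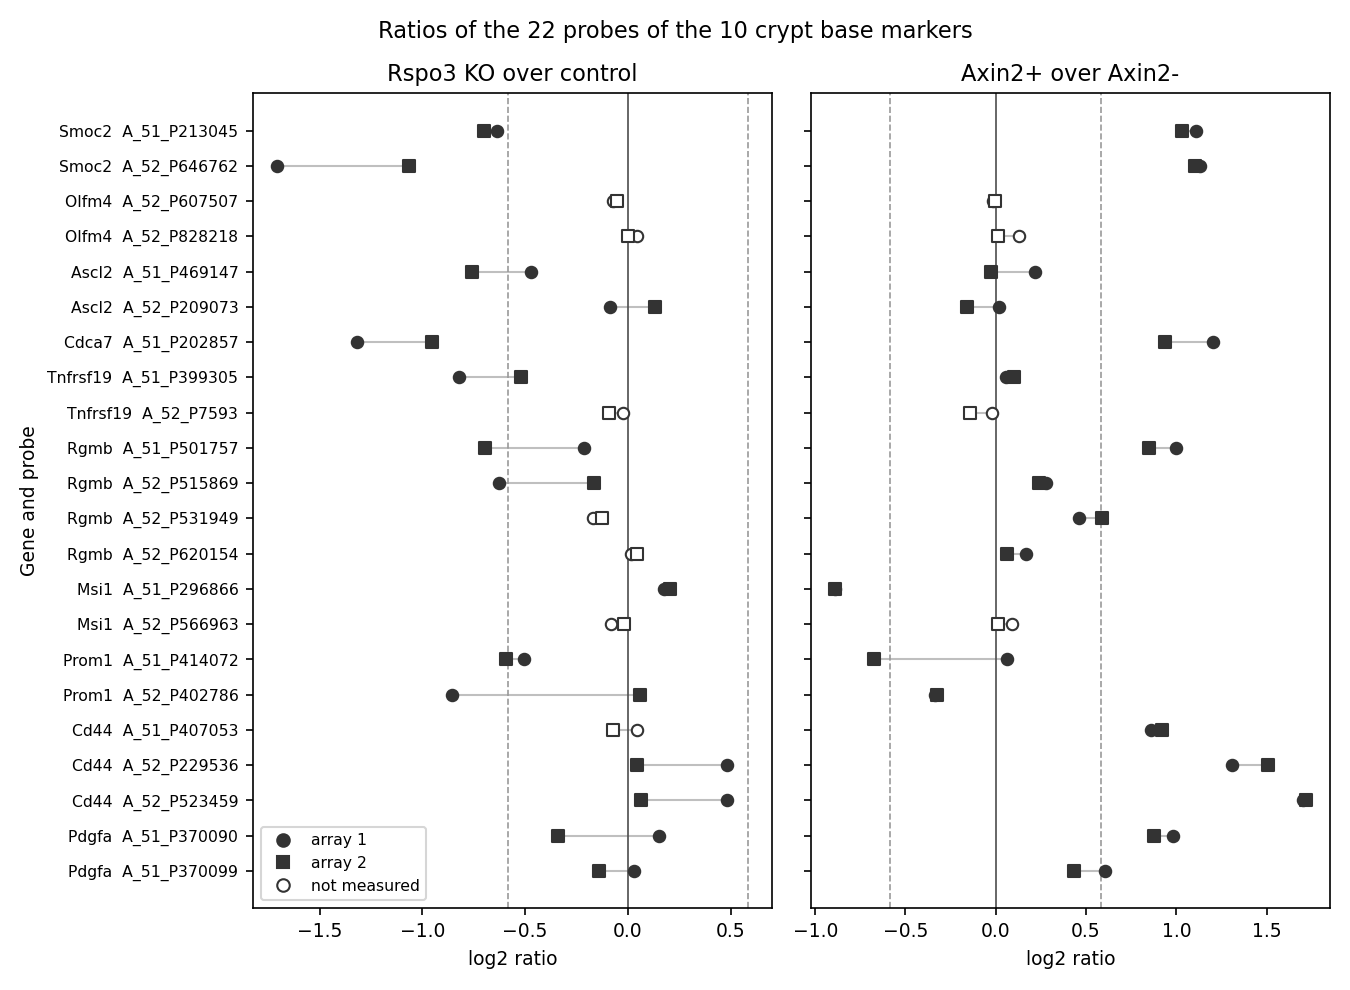
Log2 ratios of all 22 probes of the 10 genes on the 4 arrays, as Rspo3 KO over control (left) and Axin2+ over Axin2- (right); circles are array 1, squares array 2, open symbols probes not measured in that experiment, and dashed lines 1.5-fold. The measured probes of Smoc2 and of Cd44 gave 1 direction within each experiment, whereas the 2 probes of Ascl2 and of Prom1 differed in the KO experiment.

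Other crypt base and Wnt target genes were read from a list of 20. In the KO experiment 19 were measured, of which 10 were lower in both pairs, 4 were higher in both and 5 had opposite signs. Of all genes, 23.9% were lower in both pairs and 20.3% higher in both. Past 1.5-fold, 5 were lower, against 2.48% of all genes, and 1 was higher, against 1.84%. By limma 0 were called, against 0.222% of all genes, and 6 had an unadjusted p under 0.05, against 4.62%. Their median log2 ratio was -0.33. The list members farthest from 0 were Lgr5 (-1.28 and -2.61), Aqp4 (1.80 and 0.99), a water channel gene, Ephb3 (-1.61 and -1.01), an ephrin receptor gene, and Rnf43 (-0.63 and -0.73). Aqp4 was the 1 gene of the list that was higher past 1.5-fold in the KO mice.

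Markers of other cell types gave the setting of these values. Epithelial markers had a median log2 ratio of -0.02 over the 6 measured of 9. Of these, 1 was called, against 0.222% of all genes. It was Cdx2, a transcription factor gene of the intestinal epithelium, which rose in the KO mice (2.33 and 1.91, limma adjusted p = 0.0227). The others (Epcam, Krt8, Vil1, Cdh1 and Cdx1) had mean ratios between -0.32 and 0.16. The summed log2 level of those 6 was 18.10 and 18.03 in the KO mice and 18.02 and 18.04 in the controls. For Krt18, Krt19 and Lgals4, bright epithelial genes, spots had been set aside as outliers on at least 1 array. Surface colonocyte markers (6 measured of 9) had a median of 0.67 in pair 1 and -0.12 in pair 2, and 4 had opposite signs. Goblet and deep crypt secretory markers (6 of 10) had medians of 0.04 and -0.29. The unmeasured genes of these lists, Krt20, Aqp8 and Car1, and Tff3, Clca1, Agr2 and Zg16, also had spots left out as outliers. Proliferation markers had a median of -0.52 in pair 1 and 0.30 in pair 2, and 8 of 10 had opposite signs in the pairs. Fibroblast markers had a median of 0.24 (9 measured of 9) and smooth muscle markers one of 0.24 (6 of 8). The summed log2 levels of the fibroblast list were 17.06 and 17.18 in the KO mice and 16.84 and 16.89 in the controls.

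Immune cell markers had a median of -0.31 (11 measured of 14), and their summed log2 level was 13.84 and 13.58 in the KO mice against 14.36 and 13.77 in the controls. Among them the B cell genes Ms4a1 (-2.75 and -2.27, limma adjusted p = 0.0146) and Ighm (-2.15 and -1.72, adjusted p = 0.0275) fell, and the pan-leukocyte gene Ptprc had ratios of -0.82 and 0.06. Another B cell gene, Cd79a, stayed at background in all colon samples. The part of these other cell types in the values of the crypt base markers was not tested.

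Smoc2, Cdca7, Rgmb, Cd44 and Pdgfa were higher in sorted Axin2+ epithelial cells. In all, 5 of the 9 measured genes were higher past 1.5-fold than in Axin2- cells, against 7.83% of the 15815 genes measured. Msi1 was the 1 of 9 that was lower past 1.5-fold, against 6.96%. The median log2 ratio of the 9 genes was 0.98 on array 1 and 0.85 on array 2, and -0.01 over all genes for the mean. The 2 arrays were a dye swap of the same pools, their ratios correlated across genes with a Pearson r of 0.92 and a Spearman rho of 0.87, and their spread measures labelling and hybridisation only. Lgr5 (1.497 and 1.56) and Axin2 (1.35 and 1.30) were higher in the Axin2+ pool. The second of these is the gene whose reporter set the sort.

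**Figure D3:**
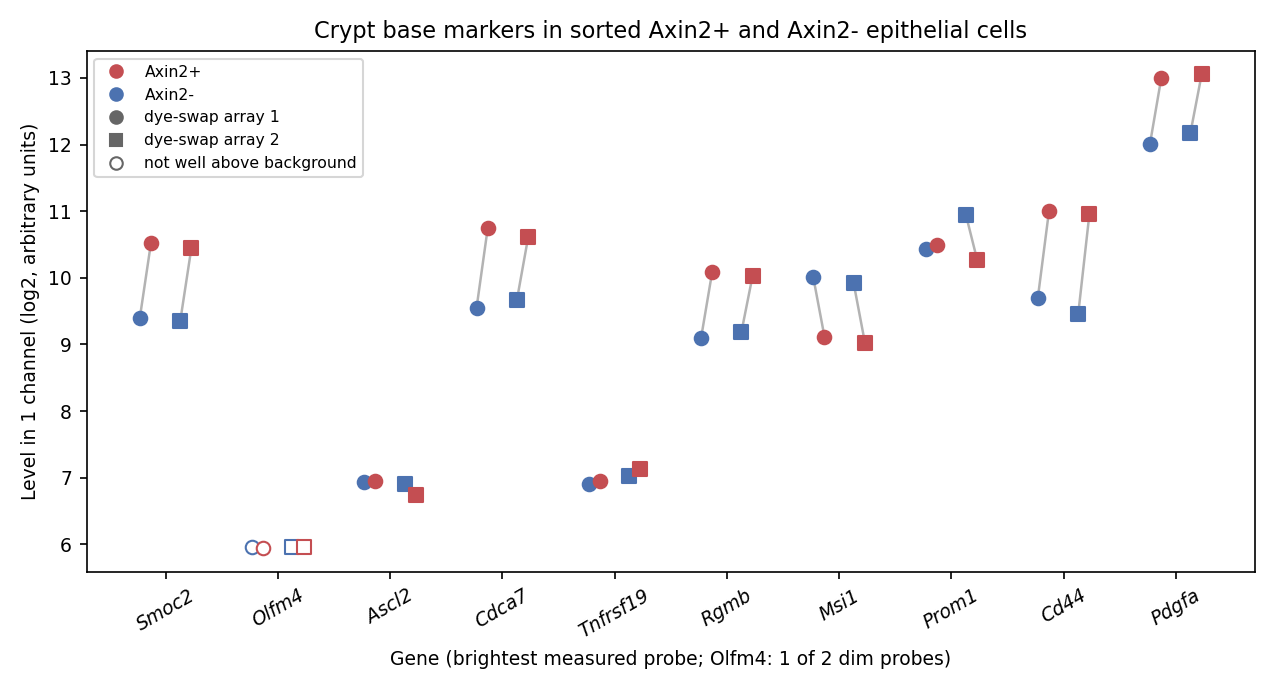
Log2 levels in 1 channel (arbitrary units) of the 10 crypt base markers in sorted Axin2+ (red) and Axin2- (blue) epithelial cells on the 2 dye-swap arrays of 1 pool of 3 mice, with a grey line joining channels of the same array; open symbols were not well above background. On both arrays Smoc2, Cdca7, Rgmb, Cd44 and Pdgfa lay above the Axin2- level and Msi1 lay below it, and Tnfrsf19 and Ascl2 differed little.

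Cd44 stood highest. Its brightest probe gave log2 levels of 11.00 and 10.96 in Axin2+ cells and of 9.69 and 9.45 in Axin2- cells. Both arrays placed the Axin2+ pool higher, with ratios of 1.31 and 1.51, or 2.65-fold. The probe spotted 10 times gave 1.70 and 1.72, with an SD between spots of 0.054 and 0.047, and the variant-region probe A_51_P407053 gave 0.86 and 0.92. That variant-region probe had log2 levels of 8.26 and 7.87 in Axin2+ cells and of 7.40 and 6.94 in Axin2- cells, well above background in both pools. In the colon samples it stayed at background, at log2 levels between 6.29 and 6.45. All 3 Cd44 probes therefore gave the same direction in the sorted cells, and 0.202% of all genes had a higher mean ratio than Cd44.

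Smoc2 had log2 levels of 10.52 and 10.45 in Axin2+ cells and of 9.39 and 9.34 in Axin2- cells. The ratios were 1.13 and 1.103, or 2.17-fold, and the second probe gave 1.11 and 1.03. Cdca7 stood at 10.75 and 10.61 in Axin2+ cells against 9.54 and 9.67 in Axin2- cells, with ratios of 1.203 and 0.94, or 2.10-fold. Both genes were thus higher on each array by a similar amount.

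Rgmb had log2 levels of 10.09 and 10.03 in Axin2+ cells and of 9.09 and 9.19 in Axin2- cells, with ratios of 0.9998 and 0.85, or 1.90-fold. Its other probes, all dimmer, gave 0.28 and 0.24, 0.46 and 0.59, and 0.17 and 0.06, all higher in Axin2+ cells and smaller. Pdgfa stood at 13.00 and 13.05 in Axin2+ cells and at 12.02 and 12.18 in Axin2- cells, with ratios of 0.98 and 0.88, or 1.90-fold. The coding Pdgfa probe A_51_P370099 gave 0.60 and 0.43, a mean short of 1.5-fold.

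Msi1 was the marker that lay lower in Axin2+ cells, at log2 levels of 9.11 and 9.03 against 10.01 and 9.92 in Axin2- cells. The ratios were -0.89 on both arrays, or 1.85-fold lower, and 96.7% of all genes had a higher mean ratio. The second Msi1 probe stayed at background throughout. Prom1 had ratios of 0.06 and -0.67 by its brighter probe, which disagreed in sign between the dye-swap arrays, and of -0.34 and -0.33 by the coding probe.

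Tnfrsf19 and Ascl2 showed little difference between the sorted pools. Tnfrsf19 had log2 levels of 6.95 and 7.13 in Axin2+ cells and of 6.90 and 7.03 in Axin2- cells, with ratios of 0.06 and 0.10. Ascl2 gave 0.22 and -0.03 by A_51_P469147 and 0.02 and -0.16 by A_52_P209073, all at log2 levels between 6.68 and 6.96. A gene this close to background has its ratios drawn towards 0 by the offset of 50 added before the logarithm. With an offset of 16 the mean ratios were 0.11 for Tnfrsf19 and -0.12 for Ascl2. In the software's own log ratios they were 0.29 and -0.18.

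Of the list of other crypt base and Wnt target genes, 12 of 19 measured were higher past 1.5-fold in Axin2+ cells and 1 was lower, with a median of 1.01. Of all genes, 7.83% were higher and 6.96% lower by this rule. Farthest from 0 were Cdk6 (1.90 and 1.85), a cell cycle kinase gene, Lgr5, Axin2 and Scn2b (1.22 and 1.26), a sodium channel subunit gene. Aqp4 was the gene that was lower past 1.5-fold (-0.89 and -1.17). Surface colonocyte markers had a median of -2.29, with 7 of 9 lower past 1.5-fold, against 6.96% of all genes. Proliferation markers had one of 0.72, with 8 of 10 higher past 1.5-fold, against 7.83%. Goblet and deep crypt secretory markers had a median of -0.79. Of these, 9 of 10 were lower on both arrays, against 41.8% of all genes, and 5 were lower past 1.5-fold, against 6.96%. Several defining markers of stroma were at background. Myh11 and Des of smooth muscle, Cdh5 and Kdr of endothelium and Col1a1, Lum and Pdgfra of fibroblasts stayed at background in both pools. The summed log2 level of the 5 fibroblast markers measured was 9.29 and 9.35 in Axin2+ cells and 9.74 and 9.86 in Axin2- cells. For the 4 smooth muscle markers measured (Acta2, Actg2, Tagln and Smtn) it was 13.07 and 12.75 against 12.58 and 12.59. Of 14 immune cell markers 10 were measured, with a median log2 ratio of -0.08. Their summed log2 level was 10.36 and 10.37 in Axin2+ cells and 10.59 and 10.60 in Axin2- cells. The part of stroma, immune cells, proliferation and surface cells in the ratios of the crypt base markers was not tested.

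The 2 experiments share no samples. Among the 9 markers measured in both, 2 (Smoc2 and Cdca7) were lower past 1.5-fold in Rspo3 KO colon and higher past 1.5-fold in Axin2+ cells, 22.2% of the markers. Of all 13594 genes measured in both, 79 or 0.581% had this combination. Lgr5 had it too, whereas Axin2 was higher in Axin2+ cells and short of 1.5-fold in the KO. Tnfrsf19 and Ascl2 were lower past 1.5-fold in the KO with little difference in Axin2+ cells. For Ascl2 this joins different probes, A_51_P469147 in the KO experiment and A_52_P209073 in the Axin2 experiment. In the KO experiment A_52_P209073 gave -0.09 and 0.13, and in Axin2+ cells A_51_P469147 gave 0.22 and -0.03. Rgmb, Cd44 and Pdgfa were higher in Axin2+ cells without passing 1.5-fold in the KO.

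**Figure D4:**
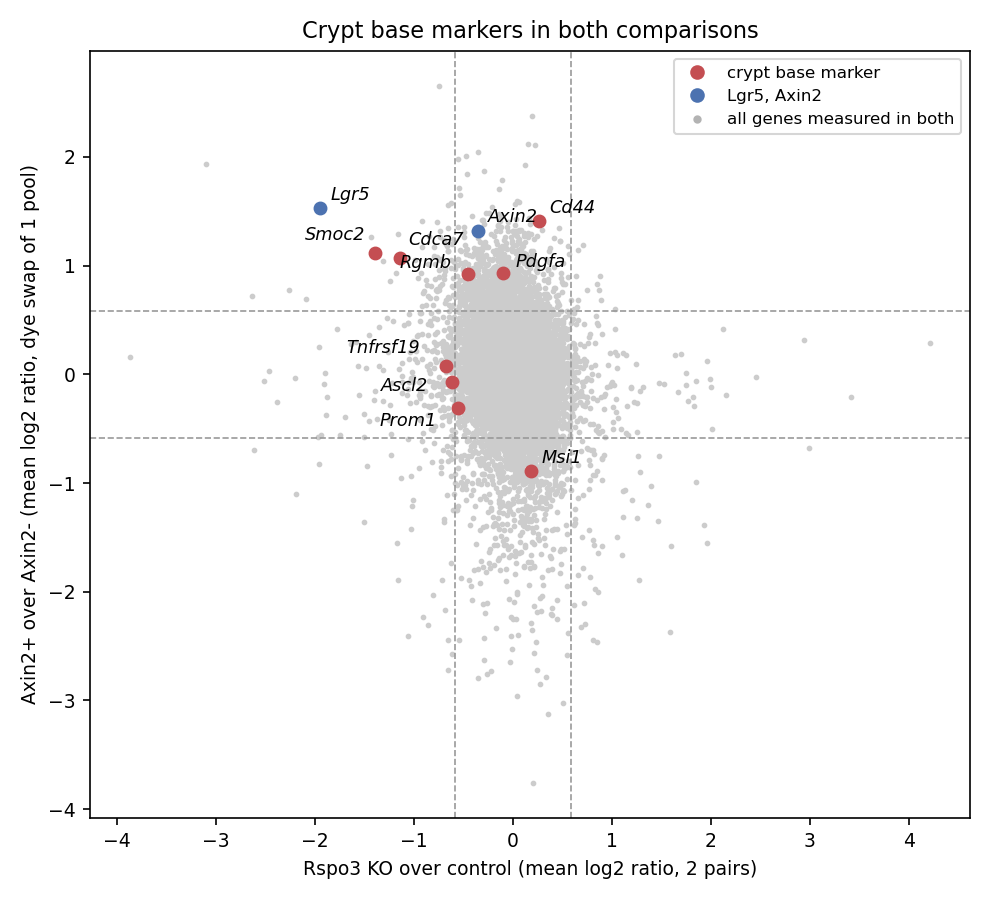
Mean log2 ratio of each gene measured in both experiments, as Rspo3 KO over control (horizontal, 2 pairs) and Axin2+ over Axin2- (vertical, dye swap of 1 pool); red points are crypt base markers, blue points Lgr5 and Axin2, grey points all genes, and dashed lines 1.5-fold. Smoc2, Cdca7 and Lgr5 lay in the upper left field, and Msi1 lay below the other markers. Ascl2 was represented by a different probe in each experiment.

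Over all 4 ratios, the genes whose profile lay nearest to the median profile of the markers were Smc1a, Sox4, Dtx4, Xylb and Cdc42ep1, by Euclidean distance over all 13594 genes. Smc1a, which encodes a cohesin subunit, was the nearest, at a distance of 0.10, with ratios of -0.43 and -0.53 in the KO pairs and of 0.91 and 0.83 in Axin2+ cells. Sox4, a transcription factor gene, followed at 0.15 with -0.37 and -0.51 in the KO pairs and 1.04 and 0.80 in Axin2+ cells. The median was taken on each array by itself and came from different markers: Ascl2 and Prom1 in the KO pairs, Pdgfa and Rgmb in Axin2+ cells. It is therefore not the profile of any 1 marker. Distances this small over 4 values describe likeness to that median on these arrays only.

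Promoter windows from RefSeq (GRCm38.p6, 250 bases before to 50 after a gene's start) were found for 8 of the 10 genes, in 13 windows. They were searched on both strands for CTTTGAT and CTTTGTT, forms of the sequence bound by the Wnt effectors TCF and LEF. CTTTGAT was found in 1 of the 13 windows, at an alternative start of Tnfrsf19, against 3.73% of all 32851 windows. CTTTGTT was found in 0 of 13, against 5.85% of all windows. The first 150 bases of the Tnfrsf19 window, which lies at chr14:61038088-61038237 of GRCm38.p6 on the minus strand, are shown with the match in capitals, read as the reverse complement ATCAAAG and starting 202 bases before the start.
Tnfrsf19 promoter window: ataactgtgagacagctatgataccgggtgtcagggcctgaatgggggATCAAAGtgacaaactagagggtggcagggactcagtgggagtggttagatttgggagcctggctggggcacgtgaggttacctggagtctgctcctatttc
A match is a description of these letters in this window and not a binding site.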

How the data were processed

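RNA was hybridised to 4 dual-color Agilent whole mouse genome arrays (4x44K design), read by the authors with Feature Extraction 11.5.1.1 per the methods and file headers. The deposited scanner files hold the mean and background intensity of each spot in both dyes, with flags for outlier, saturated and well-above-background spots, and a log10 ratio, Cy5 to Cy3, with its error as a score from the software's error model. The deposited series table of values equals these log10 ratios spot by spot, has a median of 0 per column and is not centred by gene. According to the methods the authors combined ratios by weighting them by their errors and took a 1.5-fold threshold with agreement between dye-swapped arrays. Those combined values were not used here.

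For the values reported, background was corrected with normexp (offset 50, fitted without spots whose background was non-uniform), ratios were normalised within each array by loess (span 0.3, 4 iterations), and control spots and outlier spots were left out. Arrays were turned by their dyes to KO over control and Axin2+ over Axin2-. Spots of a probe were averaged. Channel levels came from these ratios and from mean intensities quantile normalised between the 2 arrays of an experiment. The offset draws ratios of dim probes towards 0. The 43379 gene spots per array were well above background in 53.1% to 60.3% of cases per channel, between 124 and 467 were left out as outliers. The number of arrays, 2 per experiment, limits the precision. Outlier spots included very bright ones on the KO arrays. On KO array 1, 1 gene spot was saturated. Gene names came from the later of the 2 design releases in the files, which differed for 4519 probes, or from the earlier where the later gave only an accession.

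KO ratios of 15335 genes were tested against 0 with limma 3.58.1 (R 4.3.3; 2 pairs, residual df 1, prior df 6.72) and Benjamini-Hochberg adjustment, after the code was tested on simulated data. The Axin2 arrays are 1 replicate and were not tested. Alternatives were the software's log ratios and the series table, other background corrections, offsets, centring, filters, probe rules and thresholds, an error-weighted mean, a 4-array fit with a dye term, and leaving out each array. The markers, lists and tests were chosen with earlier results of these data known. Named genes were all 10 markers with every probe, the 4 genes of the list of other crypt base and Wnt targets with the largest mean ratio in each experiment, and the 5 nearest profiles. Cdx2, the B cell genes and the other single markers of cell types were named after their values were seen.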

Additional observations from a re-analysis of the deposited data

How the results depend on the processing

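Directions of the mean ratios held better than calls. In the KO experiment the means of Smoc2, Ascl2, Cdca7, Tnfrsf19, Rgmb and Prom1 were below 0 under each of 13 settings. Those of Msi1 and Cd44 were above 0 under each, while that of Pdgfa changed sign without pair 2. The 13 include the main setting, the filters gave the main values again, and the series table repeats the software's log ratios. With median centring the pairs had opposite signs also for Rgmb (0.38 and -1.25), Prom1 (0.21 and -1.19), Msi1 (0.95 and -0.44) and Cd44 (1.24 and -0.61). In Axin2+ cells the means of Smoc2, Cdca7, Tnfrsf19, Rgmb, Cd44 and Pdgfa were above 0 and that of Msi1 below 0 under each of 13. The means of Ascl2 and Prom1 changed sign under at least 1. With median centring, of the markers whose mean kept its sign, only Cd44 had the same sign on both arrays. The count of genes called by limma in the KO, 34, was 128 with the software's log ratios or the series table (1 marker, Ascl2), 126 with an offset of 16 (1 marker, Smoc2), 70 without background correction, 7 with median centring, 3 with the mean over probes, 1 with normexp fitted on all spots, and 0 without the filter on dim probes. The fit of 4 arrays with a dye term, which takes part of its error from the sorted cells, called 281 genes and 2 markers, Smoc2 (adjusted p = 0.00302) and Cdca7 (0.00975). Markers lower past 1.5-fold in the KO numbered 2 with normexp on all spots, 2 at a 2-fold threshold and 2 when each array had to pass by itself, a rule added after seeing the data (Smoc2 and Cdca7 each time). They numbered 3 with the mean over probes, where Ascl2 had a mean ratio of -0.30, and 5 with the software's log ratios. Leaving out a pair gave between 3 and 5 and a median between -0.59 and -0.47, as values with no test. That median was -0.38 with normexp on all spots and -0.43 with the mean over probes. With normexp on all spots the ratios of pair 1 were weaker, from -1.71 to -0.84 for Smoc2 and from -1.32 to -0.68 for Cdca7. Those of Tnfrsf19 went from -0.82 to -0.22, of Prom1 from -0.51 to -0.24, of Ascl2 from -0.47 to -0.03 and of Rgmb from -0.21 to -0.05. Msi1 and Cd44 changed little, and pair 2 kept its values. The main fit left out 66 spots of non-uniform background on KO array 1 and 6 on array 2. In the Axin2 experiment median centring, which leaves the dye effect in each array, gave 1 marker higher (Cd44), 0 lower and a median of 0.64. A 2-fold threshold gave 3 higher and 0 lower, and leaving out an array gave between 1 and 2 lower. The median was 0.50 without the filter and 0.45 with the mean over probes. The cause of these shifts was not tested. No paired analysis was possible because of the design, beyond the pairing that each ratio already holds: the KO test takes the ratio of 1 KO to 1 control mouse on each array, so that a block for the pair has nothing left to fit, and the Axin2 arrays are 1 replicate.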
